A study of Mus musculus with 19 samples.

Results

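The genes described here are 34 genes of the oligodendrocyte lineage and of myelin, chosen from a written list of markers with the rule that a gene needed at least 10 counts in at least 4 of the 19 mice. All 34 listed genes met this rule, out of 54232 genes in the count table, and all 34 were among the 18521 genes that could be tested. They comprised 2 genes of precursor cells (Pdgfra and Cspg4), 4 of committed and newly formed oligodendrocytes (Gpr17, Bcas1, Enpp6 and Nkx2-2), 5 transcription factors (Olig1, Olig2, Sox10, Nkx6-2 and Myrf), 10 myelin proteins, 6 enzymes and transport proteins of myelin metabolism, and 7 genes of junctions, nodes and the cytoskeleton.

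Whole striatum was taken from mice aged 6 months on a C57/BL/6 background, and total RNA was sequenced from 7 WT animals, 4 KI-FL, 4 KI-571 and 4 KI-96. KI-FL mice (HD140Q) carry an expanded polyglutamine repeat in the mouse Htt gene and make the full-length mutant protein. In the other KI genotypes, KI-96 and KI-571, that HD140Q allele was cut by CRISPR/Cas9, so that only a short or a longer N-terminal fragment of mutant HTT is made. The KI mice carried 1 mutant allele. Every cell type carried the mutation, so that an effect within oligodendrocytes and an effect from neurons or other cells cannot be told apart in this design. The study's methods give a single founder for KI-571 and several for KI-96, and the labels do not tie mice to founders.

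Oligodendrocytes arise from precursor cells that carry PDGFRA and the proteoglycan NG2 (encoded by Cspg4) and that keep dividing in the adult brain. Committed cells pass through a short premyelinating stage, marked by Gpr17, Bcas1 and Enpp6, under the control of OLIG and SOX10 transcription factors, and MYRF then switches on the myelin genes. The mature cell wraps axons with a membrane rich in galactolipids and in a few abundant proteins, and in the striatum its myelin lies mostly in the fibre bundles that cross the tissue.

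The reads assigned to genes numbered 12669809 to 26388542 per mouse, with a median of 18202412. KI-96 replicate 3 stood apart in its share of reads outside genes (24.2%, and 11.1 to 16% elsewhere), and KI-FL replicate 4 in the genes detected, 16384 against 23177 to 28700. In WT replicate 3 the summed level of cortical neuron markers was 1015 CPM (counts scaled to a common library size), against at most 410 CPM in the other mice, and choroid plexus markers summed to 5131, 5370 and 3047 CPM in KI-571 replicates 2 and 4 and KI-FL replicate 1, against at most 409 CPM elsewhere. Xist, which is transcribed from the inactive X chromosome, was high in all 4 KI-96 mice (886 to 1615 CPM) and in WT replicate 1 (1055 CPM) and KI-FL replicate 2 (1210 CPM), and was at most 5.05 CPM in the other mice, so that sex and the KI-96 genotype cannot be told apart. The labels do not give the sex of the mice or their sacrifice batch. Htt averaged 178 ± 9.8 CPM in WT (SD, n = 7), 158 ± 17.5 in KI-FL, 124 ± 15.3 in KI-571 and 186 ± 40.1 in KI-96 (SD, n = 4 each), and these gene counts do not show where the transcript was cut.

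The striatum held the full range of the lineage. On a scale of CPM per kilobase of exon, which allows genes to be set side by side, the highest level in WT mice was that of Mbp, a structural protein that compacts the myelin membrane, at 732 ± 85.4 (SD, n = 7). Next came Mobp, another protein of compact myelin, at 266 ± 28.4, and Cnp, an enzyme of the non-compact myelin, at 197 ± 26.3. The range of Mbp over the 7 WT mice (607 to 823) lay wholly above that of Mobp (211 to 291), whereas the ranges of Mobp and Cnp overlapped. Of the genes of precursors and of committed and newly formed cells, Bcas1, a marker of the premyelinating stage, was at 71.7, a level near that of the myelin protein Mog (76.1). The other early genes were lower, with Pdgfra, the receptor for platelet-derived growth factor, at 5.4, Enpp6, a choline phosphodiesterase, at 3.21, and Cspg4 at 2 CPM per kilobase. The lowest was Trf (transferrin) at 0.802, but 63.5% of its exon bases are shared on the same strand with the overlapping gene model Gm20425, so that its count is uncertain and Trf is left out where stated.

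**Figure D1:**
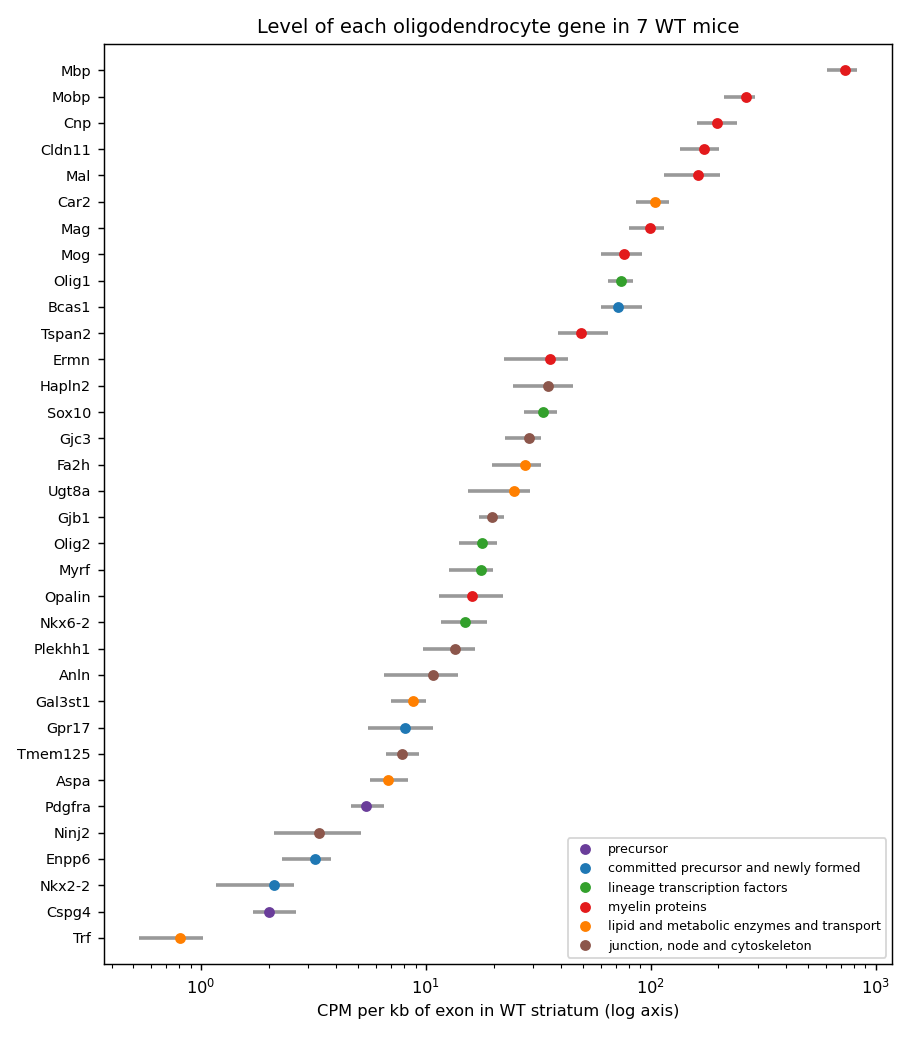
Level of each of the 34 genes in WT striatum, in CPM per kilobase of exon on a log axis, with the mean as a point and the range of the 7 mice as a line, coloured by role. Mbp at 732 lay above every other gene, most neighbours in the order overlapped, and Trf at 0.802 was lowest.

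In KI-FL striatum, which expressed full-length mutant HTT, most genes of the mature oligodendrocyte had lower levels than in WT, although few differences exceeded the spread between mice by the test. Gjc3, a gap junction protein of oligodendrocytes, fell and was the only member that passed the adjusted threshold. The galactolipid enzyme Ugt8a, the premyelinating marker Enpp6 and the carbonic anhydrase Car2 were lower by similar amounts, without passing it. The precursor genes Pdgfra and Cspg4 differed little from WT, at log2 fold changes near 0. Because whole tissue was sequenced, fewer oligodendrocytes and less RNA of these genes per oligodendrocyte cannot be told apart.

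Gjc3 (ENSMUSG00000056966.7, GRCm38 chr5:137953461-137963098, minus strand) was counted at 79.4, 93.7, 79.6 and 71.7 CPM in the 4 KI-FL mice. In the 7 WT mice it ranged from 98.1 to 141 CPM with a median of 130. Every KI-FL mouse therefore lay below every WT mouse. The log2 fold change was -0.63 ± 0.12 (SE), a ratio of 0.648, with adjusted p = 0.0435 (edgeR's quasi-likelihood test, Benjamini-Hochberg adjustment over all tested genes). The direction held in each of the 19 fits that left out 1 mouse, but the adjusted p ranged from 0.0157 to 0.1 and stayed under 0.05 in 8 of them. The call was also lost with a block for replicate number. It was lost too when the log2 level of Xist entered the model (log2 fold change -0.65, adjusted p = 0.0822) and with 1 surrogate variable (-0.55, adjusted p = 0.148). That variable set KI-FL replicate 4 (-0.964) apart from all other mice (-0.0149 to 0.094), and without this mouse the log2 fold change was -0.57 (adjusted p = 0.1).

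The promoter of Gjc3 is shown because it belongs to the single member called, and that of Ugt8a because this gene had the next smallest p. Each is the run of 250 bases before the start site in RefSeq, written 5′ to 3′ along the gene's strand on build GRCm38.p6. The Gjc3 window, chr5:137963099-137963348 on the minus strand, has 48.8% GC, and the Ugt8a window, chr3:125938653-125938902 on the minus strand, has 76.8% GC, against a median of 52.4% over all windows of the table.
Gjc3: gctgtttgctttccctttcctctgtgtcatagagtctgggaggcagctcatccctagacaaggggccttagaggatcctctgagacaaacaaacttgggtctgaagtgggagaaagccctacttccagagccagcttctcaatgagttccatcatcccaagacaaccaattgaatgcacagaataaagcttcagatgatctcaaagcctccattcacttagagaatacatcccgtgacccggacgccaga
Ugt8a: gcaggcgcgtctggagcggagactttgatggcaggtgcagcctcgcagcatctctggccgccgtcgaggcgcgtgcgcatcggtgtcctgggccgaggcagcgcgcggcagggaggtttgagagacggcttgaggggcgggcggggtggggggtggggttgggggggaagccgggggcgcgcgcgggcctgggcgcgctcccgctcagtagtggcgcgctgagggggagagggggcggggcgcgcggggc

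Ugt8a, the galactosyltransferase that makes galactosylceramide, the main glycolipid of myelin, was counted at 70.9, 54.4, 63.1 and 75.1 CPM in KI-FL mice. WT mice ranged from 70 to 132 CPM with a median of 112. Only WT replicate 3, the mouse with the high cortical markers, lay among the KI-FL values, and the other 6 WT mice were at 105 CPM or above. Ugt8a had a log2 fold change of -0.76 ± 0.16 with an edgeR adjusted p of 0.0508, which ranged from 0.0157 to 0.118 when single mice were left out. Fa2h, which hydroxylates the fatty acids of these lipids, was lower by a log2 fold change of -0.55 ± 0.18 (adjusted p = 0.143), and Gal3st1, which adds sulfate to make sulfatide, by -0.35 ± 0.16 (adjusted p = 0.272). Aspa, the aspartoacylase that frees acetate from N-acetylaspartate for lipid synthesis, was counted at 26.2, 19.9, 24.3 and 39.3 CPM in KI-FL mice. Its WT range was 33.5 to 49.5 CPM (median 39.4). In 3 KI-FL mice Aspa lay below all WT mice, and KI-FL replicate 4 sat at the WT median (log2 fold change -0.55 ± 0.18, adjusted p = 0.15).

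Car2, which makes bicarbonate in oligodendrocytes, was counted at 191, 144, 168 and 157 CPM in KI-FL mice. In WT mice it lay between 209 and 290 CPM, with a median of 250. The groups did not overlap, and the log2 fold change was -0.61 ± 0.17 (edgeR adjusted p = 0.101). Enpp6 was counted at 13.8, 11.3, 15.8 and 15.5 CPM in KI-FL mice, against 14.7 to 24.2 CPM (median 21.5) in WT. For Enpp6 too WT replicate 3 was the only WT mouse within the KI-FL range, and the log2 fold change was -0.54 ± 0.15 (adjusted p = 0.0991).

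**Figure D2:**
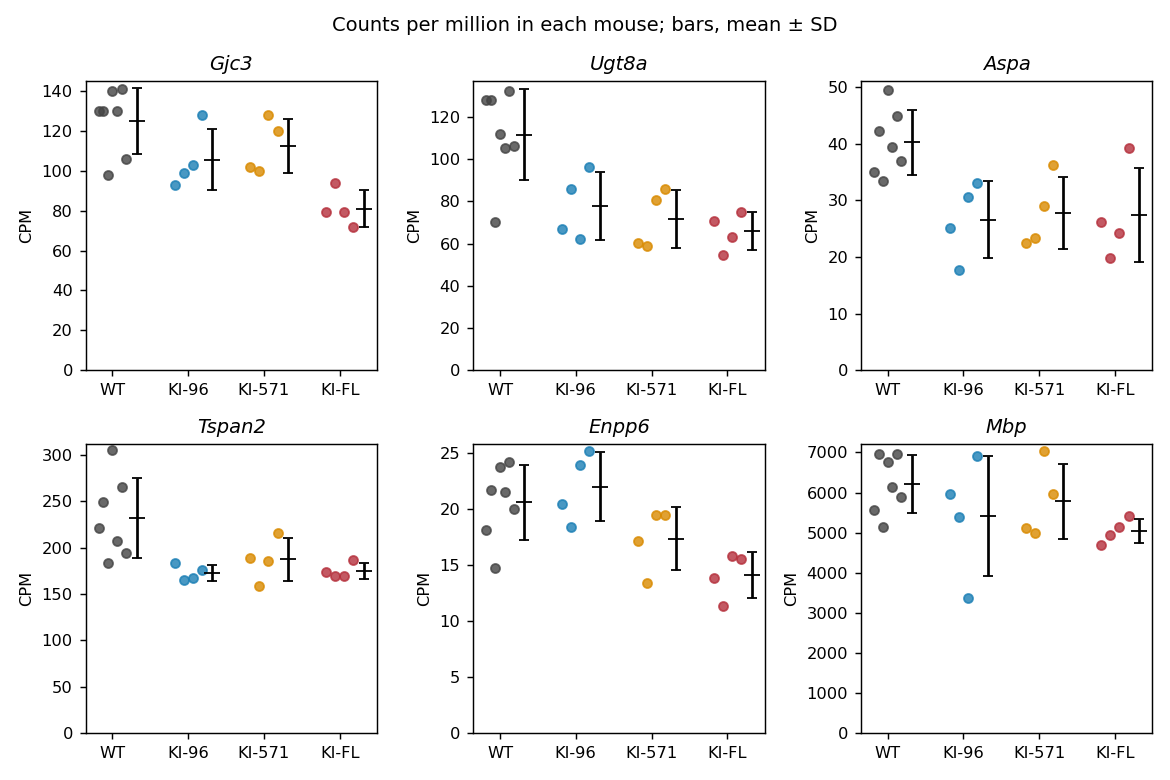
CPM of Gjc3, Ugt8a, Aspa, Tspan2, Enpp6 and Mbp in each mouse (points) with the mean and SD of each genotype (lines). For Gjc3 all 4 KI-FL mice (71.7 to 93.7 CPM) lay below the lowest WT mouse (98.1 CPM), and for Mbp the genotypes overlapped.

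Among the 34 members, 1 passed the adjusted threshold in KI-FL against WT, where 0.194% of all tested genes passed. At an unadjusted p under 0.05, 14 members were lower and 0 higher, where 8.84% of all genes were lower and 7.89% higher. In 2 members, Gjc3 and Car2, every KI-FL mouse was below every WT mouse, a pattern shown by 2.38% of all genes. The log2 fold change was below 0 in 32 of 34 members, with a median of -0.29, against -0.028 over all genes. Without KI-96 replicate 3 and KI-FL replicate 4, the libraries that stood apart, 2 passed and 17 had an unadjusted p under 0.05. When DESeq2 was used in place of edgeR, 6 members passed the adjusted threshold, namely Gjc3, Ugt8a (adjusted p = 0.00123), Car2 (0.0159), Enpp6 (0.0234), Tspan2 (0.028) and Ermn (0.0394). The shares of all genes in these other fits are not given here, and 0.194% and 8.84% belong to the edgeR fit of all mice.

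The 10 myelin proteins had a median log2 fold change of -0.28 in KI-FL mice, and 4 of them were lower at an unadjusted p under 0.05 (all genes 8.84%). These were Tspan2, a tetraspanin (-0.41 ± 0.12, adjusted p = 0.111), Ermn, a cytoskeletal protein of the outer myelin tongue (-0.46 ± 0.14, adjusted p = 0.125), Opalin, a membrane protein of late differentiation (-0.58 ± 0.21, adjusted p = 0.185), and Mal, a lipid raft protein (-0.34 ± 0.16, adjusted p = 0.294). The most abundant member, Mbp, was counted at 4683, 4940, 5136 and 5411 CPM in KI-FL mice and at 5137 to 6973 CPM (median 6144) in WT. The KI-FL values were narrowly spread and overlapped only the lower end of WT, and the log2 fold change of Mbp was -0.30 ± 0.16 (adjusted p = 0.342). Cnp had a smaller difference, -0.13 ± 0.13 (adjusted p = 0.626).

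Of the 7 junction, node and cytoskeleton genes, 4 were lower at an unadjusted p under 0.05 (all genes 8.84%), with a median of -0.42. Besides Gjc3 they were Plekhh1 (-0.36 ± 0.13, adjusted p = 0.175), Anln, an actin-binding scaffold of septins (-0.42 ± 0.18, adjusted p = 0.245), and Hapln2, a link protein of the nodal matrix (-0.56 ± 0.26, adjusted p = 0.277). Part of the Plekhh1 exons (14.8%) overlaps the antisense gene Pigh, and the strand setting of the counts is not given in the sources used here. The 5 transcription factors had a median of -0.16, and none was lower at an unadjusted p under 0.05 (all genes 8.84%). Sox10, which drives the myelin programme, was counted at 81.5, 77, 110 and 63.4 CPM in KI-FL mice and at 83.5 to 117 CPM (median 101) in WT, so that 3 of the 4 KI-FL mice lay below the WT range.

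**Figure D3:**
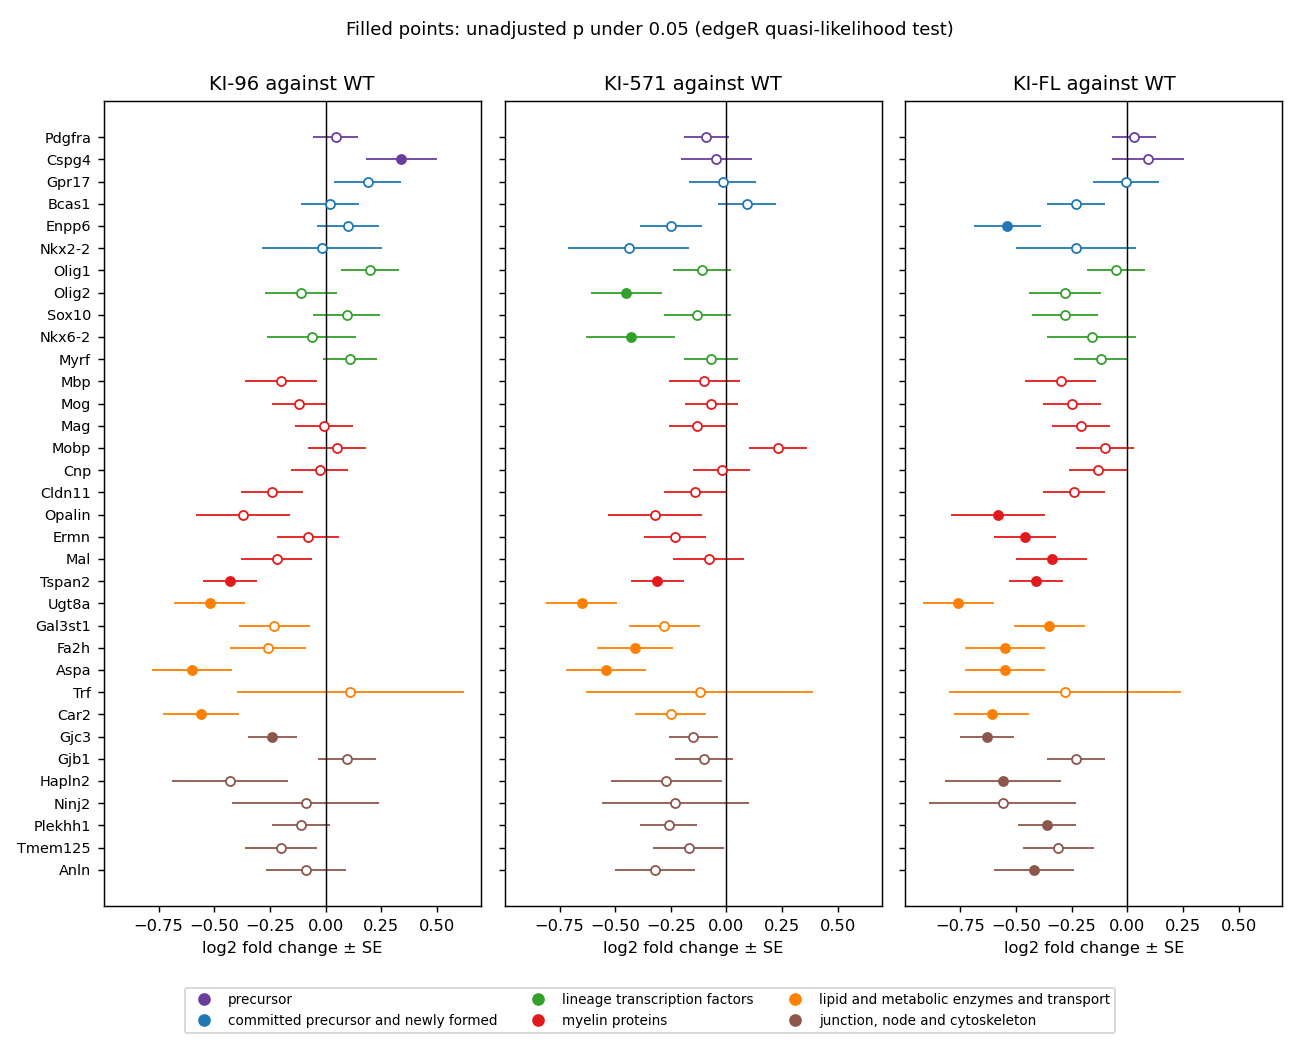
Log2 fold change against WT (point) with its SE (line) for each member in each KI genotype, with filled points for an unadjusted p under 0.05. Filled points to the left of 0 number 5, 6 and 14 in the 3 genotypes, and the only filled point to the right is Cspg4 in KI-96.

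In KI-571 striatum the genes with the smallest p were again lower than in WT and included 3 enzymes, Ugt8a, Aspa and Fa2h, and the transcription factor Olig2. Ugt8a was counted at 60.4, 58.9, 80.6 and 85.9 CPM in KI-571 mice, and 6 of the 7 WT mice were above all of these. Its log2 fold change was -0.65 ± 0.16, with an adjusted p of 0.147 by edgeR's quasi-likelihood test and 0.0235 by DESeq2. Aspa was counted at 22.4, 23.3, 29 and 36.3 CPM, of which only the highest reached the WT range (log2 fold change -0.54 ± 0.18, adjusted p = 0.369). Fa2h (-0.41 ± 0.17, adjusted p = 0.547) and Tspan2 (-0.31 ± 0.12, adjusted p = 0.469) were also lower.

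Of the 5 transcription factors, 2 were lower in KI-571 mice at an unadjusted p under 0.05 (all genes 3.83%). Olig2, which specifies the lineage, was counted at 23.8, 34.8, 36.5 and 35.5 CPM, and the WT mice at 35.7 to 52.3 CPM with a median of 47.2. KI-571 replicate 1 was the lowest of all 19 mice, and the fold change was -0.45 ± 0.16 (log2, adjusted p = 0.399). For Nkx6-2 the log2 fold change was -0.43 ± 0.20 (adjusted p = 0.616), and 12.9% of its exon bases overlap the antisense gene Inpp5a.

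In KI-571 against WT 0 members passed the adjusted threshold of edgeR, where 0.0324% of all genes passed, and 1 passed with DESeq2. At an unadjusted p under 0.05, 6 were lower (all genes 3.83%) and 0 higher (all genes 3.89%). In 0 members did every KI-571 mouse lie below every WT mouse (all genes 0.67%). Log2 fold changes were below 0 in 32 of 34 members, with a median of -0.16 against -0.0089 over all genes. KI-571 replicate 2, a mouse with high choroid plexus markers, was below the WT median in all 34 members, KI-571 replicate 4, with similarly high markers, in 25, and KI-571 replicate 1, with markers at 204 CPM, in 31, and the part of these markers in the result was not tested. The count of 6 became 10 without WT replicate 3 and 3 without KI-571 replicate 1.

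In KI-96 striatum, which expressed the shortest fragment, the lower genes at an unadjusted p under 0.05 were Ugt8a, Aspa, Tspan2, Car2 and Gjc3. Aspa was counted at 25.1, 17.7, 30.6 and 33 CPM, so that every KI-96 mouse lay below the lowest WT mouse (33.5 CPM). Its log2 fold change was -0.60 ± 0.18 (adjusted p = 0.552). Tspan2 was counted at 184, 165, 167 and 176 CPM, a narrow range that touched only the lowest WT mouse, replicate 3 at 183 CPM (-0.43 ± 0.12, adjusted p = 0.535). Ugt8a was counted at 67, 85.7, 62.2 and 96.2 CPM, below all WT mice except WT replicate 3 (log2 fold change -0.52 ± 0.16, adjusted p = 0.552). For Car2 the values were 170, 182, 102 and 225 CPM (-0.56 ± 0.17, adjusted p = 0.552), and the lowest came from KI-96 replicate 3. Gjc3 was counted at 93, 98.7, 103 and 128 CPM, of which 3 lay below the WT mean of 125 CPM (log2 fold change -0.24 ± 0.11, adjusted p = 0.669).

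Cspg4 was the only member that was higher than in WT at an unadjusted p under 0.05. It was counted at 30.5, 26.3, 36.5 and 27.2 CPM in KI-96 mice and at 20.3 to 31.5 CPM (median 23.1) in WT. The highest WT mouse was replicate 1, the WT mouse with high Xist. Among KI-FL mice, replicate 4, with Xist at 3.2 CPM, had 31.4 CPM of Cspg4, and replicate 2, with Xist at 1210 CPM, had 28.9 CPM. The part of sex in these values was not tested. The log2 fold change of Cspg4 was 0.34 ± 0.16 (adjusted p = 0.669), and it was -0.0081 with Xist as a covariate.

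In KI-96 against WT 0 members passed the adjusted threshold with edgeR (0.027% of all genes) and 0 with DESeq2. At an unadjusted p under 0.05, 5 were lower (all genes 3.09%) and 1 higher (all genes 4.36%), and in 1 member, Aspa, every KI-96 mouse was below every WT mouse (all genes 0.643%). Log2 fold changes were below 0 in 23 of 34 members, with a median of -0.089 against -0.015 over all genes. KI-96 replicate 3, the mouse with many reads on no gene, was below the WT median in 30 of 34 members, and its Mbp level of 3363 CPM was the lowest of the 19 mice. The number at an unadjusted p under 0.05 was 12 without KI-96 replicate 4 and 0 with Xist as a covariate.

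**Figure D4:**
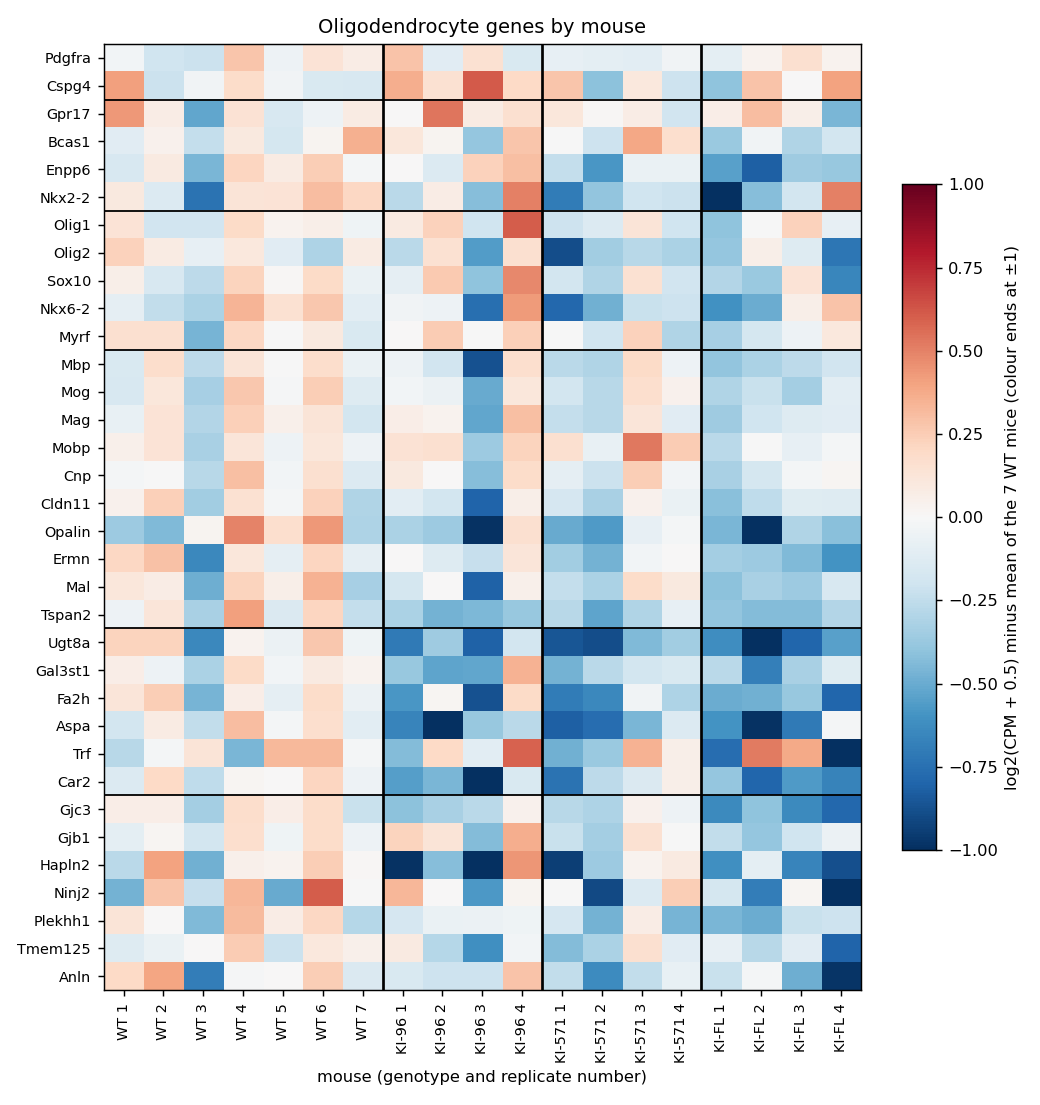
Log2(CPM + 0.5) of each member in each mouse minus the WT mean of that gene, with the colour scale ending at 1 in both directions. The 4 KI-FL mice were below the WT median in 27 to 34 of the 34 members, KI-571 replicate 2 in 34, KI-96 replicate 3 in 30 and, among WT mice, replicate 3 in 30.

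The KI genotypes were then compared directly, to ask whether these genes differed with the length of the mutant protein. In KI-96 against KI-FL, 5 members were higher in KI-96 at an unadjusted p under 0.05 (all genes 5.13%) and 0 lower (all genes 3.77%). Enpp6 was counted at 20.4, 18.4, 23.9 and 25.1 CPM in KI-96 mice, all above the 11.3 to 15.8 CPM of KI-FL mice. The log2 difference was 0.64 ± 0.16, a ratio of 1.56, with an edgeR adjusted p of 0.289. The others were Gjc3 (0.38 ± 0.13, adjusted p = 0.439), Ermn (0.39 ± 0.16, adjusted p = 0.499), Sox10 (0.37 ± 0.17, adjusted p = 0.55) and Gjb1, a gap junction gene of the X chromosome (0.32 ± 0.15, adjusted p = 0.55). In 3 members, Enpp6, Ermn and Plekhh1, every KI-96 mouse was above every KI-FL mouse (all genes 1.91%). The adjusted threshold was passed by 0 members and by 0% of all genes with edgeR, and by 0 members with DESeq2. The count of 5 ranged from 2 (without KI-96 replicate 4) to 10 (without KI-96 replicate 3).

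In KI-571 against KI-FL, Gjc3 was counted at 102, 100, 128 and 120 CPM in KI-571 mice, and every one was above every KI-FL mouse, as was the case for 1 member and 2.28% of all genes. The log2 difference was 0.47 ± 0.13, a ratio of 1.39 (adjusted p = 0.289). Mobp (0.32 ± 0.15, adjusted p = 0.532) and Bcas1 (0.32 ± 0.15, adjusted p = 0.549) were the other members higher in KI-571 at an unadjusted p under 0.05, which made 3 (all genes 4.67%), with 0 lower (all genes 4.23%). By adjusted p 0 members passed with edgeR (all genes 0.0864%) and 0 with DESeq2.

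In KI-96 against KI-571, Enpp6 (0.34 ± 0.16), Cspg4 (0.38 ± 0.18) and Olig1 (0.31 ± 0.15) were higher in KI-96 at an unadjusted p under 0.05, each with an adjusted p of 0.9. These were 3 of 34 members (all genes 3.14%), with 0 lower (all genes 2.38%), and in 0 members was every KI-96 mouse above every KI-571 mouse (all genes 1.54%). By adjusted p 0 members passed with edgeR (all genes 0.0054%) and 0 with DESeq2. With Xist as a covariate the difference of Cspg4 was 0.0068, and the cause was not tested. In the test of any difference among the 4 genotypes, 0 members passed with edgeR (all genes 0.14%) and 6 with DESeq2, and 9 members had an unadjusted p under 0.05 (all genes 11.7%), led by Ugt8a (adjusted p = 0.0695) and Gjc3 (adjusted p = 0.0862).

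Precursor genes were next set against myelinating genes. The precursor list comprised the 6 genes of precursors and of committed and newly formed cells, and the myelinating list 25 genes, which were Myrf, Nkx6-2 and the genes of myelin proteins, enzymes and junctions. In KI-FL mice 25 of 25 myelinating genes had a log2 fold change below 0 against WT, with a median of -0.35, and 13 were lower at an unadjusted p under 0.05 (all genes 8.84%). The medians of the myelinating list were -0.23 in KI-571 and -0.20 in KI-96 mice, with 5 genes lower in each (all genes 3.83% and 3.09%). For the 6 precursor genes the medians were -0.12 in KI-FL, -0.068 in KI-571 and 0.07 in KI-96. All 3 comparisons used the same 7 WT mice, so that they are not independent of each other.

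Pdgfra, the defining receptor of precursor cells, showed little difference between genotypes. It was counted at 50.2, 55.2, 60.3 and 55.2 CPM in KI-FL mice, 50.7, 50.3, 49.9 and 52.6 CPM in KI-571 mice, 65.7, 49.7, 59.9 and 48.3 CPM in KI-96 mice, and 46.4 to 65.3 CPM (median 52.9) in WT. All KI mice but 1 lay within the WT range, and that mouse exceeded it by less than 1 CPM. Against WT, Pdgfra differed by 0.029 ± 0.10 in KI-FL, -0.09 ± 0.10 in KI-571 and 0.045 ± 0.10 in KI-96 on the log2 scale. Gpr17, a receptor of committed precursors, was counted at 43.1, 50.9, 42.9 and 29.8 CPM in KI-FL mice, within its WT range of 28.6 to 55.6 CPM. Other precursor genes did not all stay level. For 12 further ones, described below, median log2 fold changes were -0.24 in KI-FL, -0.30 in KI-571 and -0.0048 in KI-96. For 26 further genes of mature oligodendrocytes the medians were -0.15, -0.074 and -0.018 in the same order.

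The mean log2 CPM of the precursor list minus that of the myelinating list was -1.58 ± 0.14 in WT mice (SD, n = 7; range -1.74 to -1.36). In KI-FL mice it was -1.57, -1.29, -1.39 and -1.04, in KI-571 mice -1.31, -1.43, -1.56 and -1.60, and in KI-96 mice -1.29, -1.31, -0.96 and -1.49. Of the 4 mice each, 3 KI-96, 2 KI-FL and 1 KI-571 mice lay above the WT range, and the highest values came from KI-96 replicate 3 and KI-FL replicate 4, the same libraries that stood apart in reads on no gene and in genes detected. With only Pdgfra and Cspg4 as the precursor list, the difference was -1.53 ± 0.21 in WT mice (SD, n = 7; range -1.84 to -1.29). It was then -1.07 ± 0.26 in KI-FL, -1.38 ± 0.24 in KI-571 and -1.13 ± 0.46 in KI-96 mice (SD, n = 4 each). The part of library quality in these values was not tested.

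Within the myelinating list the 5 enzymes other than Trf (Ugt8a, Gal3st1, Fa2h, Aspa and Car2) differed more from WT than the 10 myelin proteins did. Their median log2 fold changes were -0.55 in KI-FL, -0.41 in KI-571 and -0.52 in KI-96, against -0.28, -0.11 and -0.16 for the myelin proteins. The mean log2 CPM of the enzymes minus that of the myelin proteins was -2.48 ± 0.09 in WT (SD, n = 7; lowest -2.61). It was -2.99, -2.72, -2.85 and -2.67 in KI-571 mice, -3.00, -2.86, -2.66 and -2.60 in KI-96 mice, and -2.60, -2.94, -2.79 and -2.71 in KI-FL mice. Of the 12 KI mice, 10 lay below the lowest WT mouse, and KI-96 replicate 4 and KI-FL replicate 1 were just above it. This difference between lists was chosen after its values had been seen and was given no test. WT replicate 3, low in most members, was at -2.55.

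**Figure D5:**
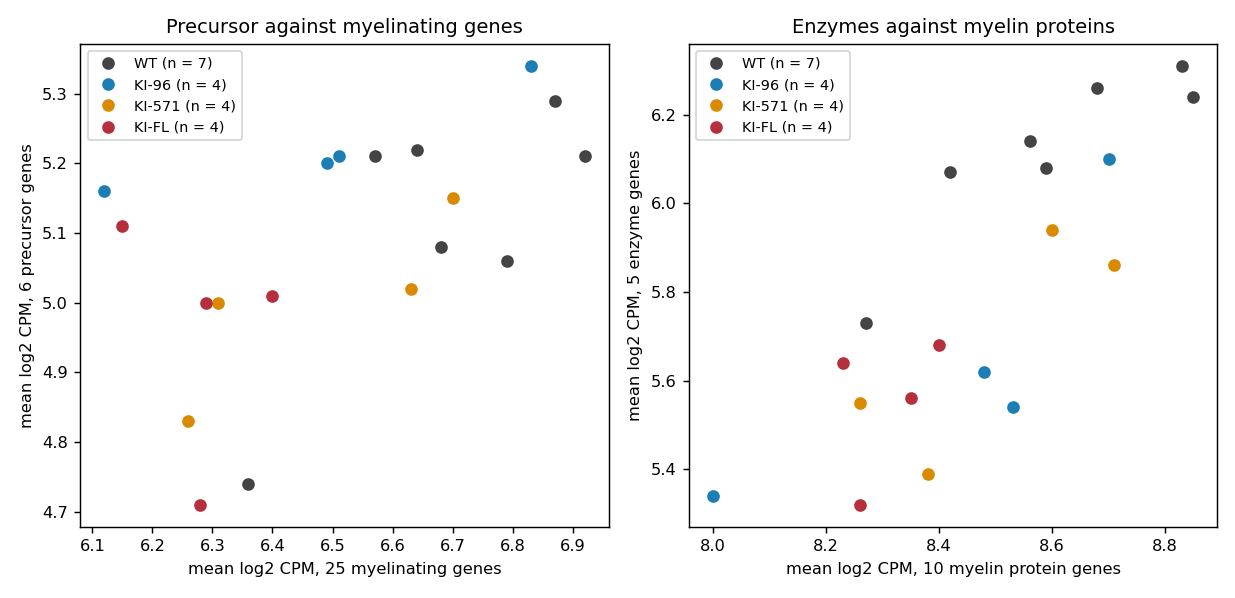
Mean log2 CPM of the precursor list against the myelinating list, and of the 5 enzymes against the 10 myelin proteins, with a point for each mouse coloured by genotype. The enzyme list minus the myelin protein list was -2.61 or above in every WT mouse and below it in 10 of the 12 KI mice.

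Among 60 further genes of the lineage, listed apart from the members, 26 are genes of mature oligodendrocytes, 12 of precursors and 22 signals and regulators. Like the members, they were chosen with earlier results of these data known, so that their counts are no independent support. In KI-FL mice, where 8.84% of all genes were lower and 7.89% higher than in WT at an unadjusted p under 0.05, 8 mature genes were lower and 0 higher (median log2 fold change -0.15), 4 precursor genes were lower and 0 higher (median -0.24), and 3 signals and regulators were lower and 0 higher (median -0.18), the last a share near that of all genes. Dbndd2, a regulator of casein kinase expressed in oligodendrocytes, was the only one of the 60 that passed the adjusted threshold in KI-FL mice (all genes 0.194%). Its log2 fold change was -0.77 ± 0.16 (93.6 CPM in WT and 54.8 CPM in KI-FL on average, adjusted p = 0.0462). It also differed between KI-571 (121 CPM on average) and KI-FL mice, by 1.14 ± 0.18 (adjusted p = 0.0158), with every KI-571 mouse above every KI-FL mouse (all genes 2.28%). Of its exon bases, 20.7% are shared on the same strand with the gene model Gm20458, so that its count is uncertain. Ptprz1, a receptor phosphatase of precursor cells and astrocytes, was lower, with log2 fold changes of -0.45 ± 0.10 in KI-FL (adjusted p = 0.0605), -0.48 ± 0.10 in KI-571 (adjusted p = 0.0959) and -0.30 ± 0.10 in KI-96 (adjusted p = 0.582).

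The summed level of the members was 12316 ± 1407 CPM in WT (SD, n = 7), 10257 ± 589 in KI-FL, 11803 ± 1797 in KI-571 and 11228 ± 2498 CPM in KI-96 (SD, n = 4 each), of which Mbp alone made 43.2 to 51.7%. Markers of other cell types were summed in the same way. The astrocyte markers came to 3742, 3861, 3819 and 4106 CPM across the KI-FL mice and to 3953 to 4742 CPM in WT, so that only the highest KI-FL mouse reached the WT range. Of these 8 markers, 3 were lower at an unadjusted p under 0.05 in KI-FL against WT (all genes 8.84%) and 0 higher (all genes 7.89%). A log2 fold change below 0 was seen in 7 (median -0.14). Red cell markers came to 41.4 to 92.5 CPM in KI-FL and 75.8 to 207 CPM in WT mice. Of these 4 markers, 2 were lower at an unadjusted p under 0.05 (all genes 8.84%), with a median of -0.74. The sums of microglia markers (412 to 546 and 369 to 510 CPM) and of striatal projection neuron markers (8234 to 9571 and 6770 to 10556 CPM) overlapped between KI-FL and WT mice. Of the 8 microglia markers, 2 were higher (all genes 7.89%) and 1 lower (all genes 8.84%) at an unadjusted p under 0.05. Of the 10 projection neuron markers, 0 were higher and 0 lower at that threshold. A list of 4 genes of Schwann cells, which myelinate nerve roots, summed to 26.1 to 29 CPM in KI-FL and 33.2 to 46.5 CPM in WT mice, with no overlap. Nearly all of this came from Pmp22 (23.5 against 37.1 CPM on average, adjusted p = 0.08). Of the 4 genes, 1 was lower at an unadjusted p under 0.05 (all genes 8.84%). In 1 gene every KI-FL mouse lay below every WT mouse (all genes 2.38%). The log2 fold changes of the 4 genes ran from -0.66 to 0.39. The part of these markers in the results was not tested.

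Promoters of 25 of the 34 members were found in the RefSeq table. They were searched on both strands for words bound by SOX factors (ACAAAG or ACAATG) and for words of the MYRF motif (CTGGCAC or CTGGTAC), since SOX10 and MYRF both activate myelin genes. A SOX word was present in 14 of the members' 33 windows (42.4%, in 11 genes), against 25% of all windows of the same length. A MYRF word was present in 5 of the 33 (15.2%, in 4 genes), against 5.94%. A gene with several start sites could count more than once. Both members whose promoters are printed above, Gjc3 and Ugt8a, held neither. Below, Enpp6 is shown as the member with the smallest p in KI-96 against KI-FL, Aspa as the member that separated all KI-96 from all WT mice, and Mag, the myelin-associated glycoprotein, as a contrast, chosen after its values were seen, whose level differed little between KI-96 and WT (-0.0084 ± 0.13). The windows are chr8:46986637-46986886 on the plus strand for Enpp6 (38.4% GC), chr11:73324638-73324887 on the minus strand for Aspa (38.8% GC) and chr7:30914923-30915172 on the minus strand for Mag (61.2% GC), with SOX and MYRF words in capitals.
Enpp6: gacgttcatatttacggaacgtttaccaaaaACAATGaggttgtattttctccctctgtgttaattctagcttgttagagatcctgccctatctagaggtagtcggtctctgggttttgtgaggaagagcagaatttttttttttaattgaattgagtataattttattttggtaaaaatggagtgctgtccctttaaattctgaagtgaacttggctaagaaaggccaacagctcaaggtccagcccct
Aspa: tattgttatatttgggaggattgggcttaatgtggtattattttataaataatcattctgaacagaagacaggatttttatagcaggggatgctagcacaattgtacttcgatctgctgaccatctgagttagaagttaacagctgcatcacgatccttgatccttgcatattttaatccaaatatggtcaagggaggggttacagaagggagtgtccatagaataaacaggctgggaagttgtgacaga
Mag: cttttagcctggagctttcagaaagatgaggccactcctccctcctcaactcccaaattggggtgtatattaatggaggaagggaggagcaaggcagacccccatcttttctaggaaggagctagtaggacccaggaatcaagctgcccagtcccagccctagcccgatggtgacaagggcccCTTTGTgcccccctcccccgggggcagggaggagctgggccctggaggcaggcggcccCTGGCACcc
Enpp6 held 1 SOX word, Mag 1 SOX word on the opposite strand and 1 MYRF word close to the start, and Aspa held neither. The Aspa window precedes the RefSeq start and lies inside the longer GENCODE gene model (chr11:73304992-73329596), outside its exons. A match is a run of letters and not a measured binding site, and the fold changes were not tested against it.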

How the data were processed

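Total RNA of the striatum of 19 mice was sequenced, and genotypes and replicate numbers were taken from the deposited labels. The authors deposited raw counts of reads per gene, not normalized. Before that, the authors trimmed adapters with BBduk, dropped reads shorter than 100 bases, aligned reads with STAR to GRCm38 and counted them with HTSeq. The annotation and strand setting are not given in the sources used here, so that reads of overlapping genes could be lost or misassigned. The 5 summary lines, 20.8 to 32.8% of all reads per mouse, were kept out of library sizes, and 4 columns that match no mouse were not used. The authors removed a WT sample that is not named in the sources used here, and all 7 WT mice were kept.

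Library sizes were adjusted by TMM. Genes with few counts were dropped by filterByExpr, which required a count of at least 10 and a total of at least 15, and all mice entered a single fit in edgeR 4.0.16 (R 4.3.3) with a coefficient per genotype. The authors fitted the sacrifice batch as a covariate. The labels do not give it, so that it could not be fitted here. The part of batch in the differences between genotypes was not tested. Each pair of genotypes was compared by the two-sided quasi-likelihood test, with Benjamini-Hochberg adjustment over the 18521 tested genes and a threshold of 0.05. Log2 CPM used a prior count of 2. Levels per kilobase used exon lengths of GENCODE mouse release M21. The members and gene lists were chosen with earlier results of these data known. Fold changes were named for members with a p under 0.05 before or after adjustment. Those of Mbp, Cnp, Pdgfra and Mag were added for their roles after their values were seen, and the other lineage genes named were chosen from those with an unadjusted p under 0.05. Mean list levels were described without a test. No source says that the replicates of a genotype came from separate litters, and p-values measure the spread between these mice.

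Alternatives were DESeq2 1.42.0, its size factors, other filters on low counts, a prior count of 0.5, Xist or 1 surrogate variable (sva 3.50.0) as a covariate, only the genotypes compared, a replicate block, parts of the WT group and each mouse left out. The fit without KI-96 replicate 3 and KI-FL replicate 4 was added after the data had been seen. The scripts were tested on simulated data, and no 2 libraries of the same genotype agreed within sampling noise.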

Additional observations from a re-analysis of the deposited data

Results flagged for a closer look

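Within genotypes, 156 groups of log2 CPM values were examined for a mouse far from the others (Dixon's test), and 8 were found, where about 1 in 20, or 8, arises by chance. In WT replicate 3 Nkx2-2 was at 1.79 (other WT mice 2.45 to 2.92), Mobp at 10.50 (10.77 to 10.96), Ermn at 6.34 (6.90 to 7.28) and Ugt8a at 6.13 (6.72 to 7.05), and the mean of the precursor list was at 4.74 (5.06 to 5.29). This mouse also had the high cortical neuron markers of 1015 CPM, whose part in these values was not tested. Olig2 was at 4.58 in KI-571 replicate 1 (other KI-571 mice 5.13 to 5.19), Mobp at 10.47 in KI-96 replicate 3 (10.97 to 11.05) and Anln at 6.87 in KI-96 replicate 4 (6.37 to 6.43).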

How the results depend on the processing

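The call of Gjc3 in KI-FL against WT was lost in 11 of the 19 fits that left out a mouse, namely WT replicates 1, 4, 5, 6 and 7, KI-96 replicate 1, KI-571 replicate 3 and each KI-FL mouse, and Ugt8a gained it in 5, without WT replicate 3, KI-96 replicate 3 or 4, or KI-571 replicate 1 or 4. The number of members past the adjusted threshold in KI-FL against WT, 1 as reported, was 6 with DESeq2, 4 with only the genotypes compared, 2 with DESeq2 size factors, with no filter, with 10 counts in every mouse or without the 2 libraries that stood apart, 0 with Xist, with 1 surrogate variable, with WT replicates 1 to 4 or 5 to 7 alone, and 0 to 3 with single mice left out (3 without WT replicate 3 or KI-96 replicate 3). In KI-571 against WT it was 1 with DESeq2 and with no filter, and in the test of any difference 6 and 3, with 0 to 2 when single mice were left out (2 without WT replicate 3). At an unadjusted p under 0.05, KI-96 against WT gave 0 members with Xist and 4 to 12 without single mice, KI-571 against WT 3 with WT replicates 5 to 7 alone and 3 to 10 without single mice, and the test of any difference 8 to 16 (16 without KI-96 replicate 3). KI-96 against KI-571 gave 1 with Xist or only the genotypes compared, 6 without the 2 libraries and 0 to 5 without single mice. KI-96 against KI-FL gave 2 with Xist, 12 without the 2 libraries and 2 to 10 without single mice, and KI-571 against KI-FL 1 to 4 (1 without KI-571 replicate 3 or 4 or KI-FL replicate 3). Cspg4 in KI-96 against WT changed sign to -0.0081 with Xist. The cause was not tested. With the replicate block, KI-FL against WT gave 0 members past the adjusted threshold (Gjc3 at -0.61, adjusted p = 0.32). KI-96 against KI-571 then gave 1 and KI-96 against KI-FL 3 at an unadjusted p under 0.05. A correlation over 0.1 was seen in 5 of 24 same-numbered pairs of mice and in 11 of 108 other pairs. These counts do not settle whether the replicate numbers pair the mice. The alternatives were run on the 37 differences of members with an unadjusted p under 0.05, all of which but Cspg4 in KI-96 against WT kept their direction in each, and of 1088 values 1050 also stayed on the same side of the threshold. The median log2 fold change of the members in KI-FL against WT was -0.35 to -0.28 without single mice. Shares of all genes are not given for the alternative fits, so that their counts of members have no background to be set against. The groups of 4 mice and the low counts of Trf and Ninj2 limit what could be detected.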

Other observations

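Among the 22 further signals and regulators, 3 were lower in KI-FL mice at an unadjusted p under 0.05, a share near that of all genes (8.84%). Fgfr2, a receptor for fibroblast growth factors that acts in myelin growth, averaged 88.3 CPM in WT and 64.7 CPM in KI-FL mice, with every KI-FL mouse below every WT mouse (log2 fold change -0.45 ± 0.11, edgeR adjusted p = 0.08). Its log2 fold change was -0.26 ± 0.11 in KI-571 and -0.19 ± 0.11 in KI-96 mice, against the same WT mice. Igf1, a growth factor for oligodendrocytes, averaged 3.65 CPM in WT and 1.72 CPM in KI-FL mice (log2 fold change -1.08 ± 0.48, adjusted p = 0.266). Id2, an inhibitor of differentiation, averaged 46.4 and 28.3 CPM (-0.71 ± 0.20, adjusted p = 0.101). For both, as for Fgfr2, every KI-FL mouse lay below every WT mouse. This pattern was shown by 3 of the 22 genes and by 2.38% of all genes.

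In KI-571 mice 4 of 12 further precursor genes were lower at an unadjusted p under 0.05 (all genes 3.83%) and 0 higher (all genes 3.89%), with a median log2 fold change of -0.30, and in KI-96 mice 1 was lower (all genes 3.09%) and 1 higher (all genes 4.36%). Enpp2, which oligodendrocytes and choroid plexus both express, was higher by 1.67 ± 0.45 on the log2 scale in KI-571 mice (adjusted p = 0.207), the genotype with 2 of the 3 mice with high choroid plexus markers, and the part of these markers was not tested. Of the 22 signals and regulators, 2 were higher (all genes 4.36%) and 2 lower (all genes 3.09%) in KI-96 mice at an unadjusted p under 0.05. Of the higher ones, Tcf7l2, a transcription factor of newly formed oligodendrocytes that thalamic neurons also express, differed by 1.06 ± 0.42 (adjusted p = 0.629). Lpar1, a lysophosphatidic acid receptor of oligodendrocytes, differed by 0.30 ± 0.10 (adjusted p = 0.604). For Lpar1 every KI-96 mouse lay above every WT mouse, as in 111 of all 18521 tested genes, and for Tcf7l2 the groups overlapped.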
